A study of Homo sapiens with 12 samples.

Results

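A set of 10 genes that repair DNA, bypass lesions in it or supply its nucleotides was followed through 12 RNA-seq libraries. The members are XPC, DDB2, DDB1, ERCC5, RRM1, RRM2, RRM2B, POLH, POLK and MGMT. They were chosen by symbol, as genes that either belong to nucleotide excision repair or are linked with p53 in the DNA damage response, and each has 1 of the 40295 rows of the deposited gene table. All 10 passed the filter on low counts in both cell lines.

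TOV-112D, an ovarian cancer cell line whose p53 is labelled R175H, was treated for 3 h with DMSO (the vehicle), UCI-1001 or UCI-1014, with 2 libraries for each treatment. The other 6 libraries are labelled Saos-2, an osteosarcoma cell line, with 16 h of induction: 3 of them hold the parental line without p53 (p53-null) and 3 a line with wild-type p53 under a doxycycline-inducible construct (p53-WT). UCI-1014 is described by the study as an analog of UCI-1001 in which a methoxy group takes the place of the nitro group. The study gives the amount of UCI-1001 added. Neither the amount of UCI-1014 nor whether the p53-WT line is 1 clone or a pool is given in the sources used here. The construct itself also separates p53-WT from p53-null cells. The labels do not say whether replicates came from separate cultures, so p-values measure only the spread between these libraries.

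The deposited counts summed to between 17762027 and 20717898 in a TOV-112D library and between 19593655 and 24629558 in a library labelled Saos-2. CDKN1A, a p53 target, rose with p53-WT from 64.7 ± 12.5 to 8336 ± 612 CPM (counts scaled to library size with TMM factors, mean ± SD, n = 3 and 3), in the direction of the labels. The markers of the cell types went against the labels in part. Of 8 osteoblast-type markers, 2 reached a mean of 1 TPM (a unit scaled to transcript length and library size) in the libraries labelled Saos-2, and the list summed to 7.35 to 25.9 TPM in a library. SP7 had 0 counts there and the means of ALPL, COL1A1 and SPARC were 0.129, 0.752 and 0.553 TPM, whereas the keratin genes KRT8 and KRT18 had 269 and 478 TPM and the epithelial list summed to 707 to 807 TPM. In TOV-112D, 2 of 8 epithelial or ovarian markers reached 1 TPM, the list summed to 3.75 to 7.15 TPM, KRT18 had 0 counts, and PAX8 and MUC16 were near 0, whereas 5 of 8 osteoblast-type markers reached 1 TPM there, with a sum of 31.5 to 38.5 TPM of which COL1A1 held 25.05 TPM on average. Of 3 endothelial markers 0 reached 1 TPM in either line, and of 3 blood markers CD3E had 0 counts in both, PTPRC had 1.03 TPM in TOV-112D and 0.266 TPM in the other line, and CD68 had 55.3 and 78.0 TPM. The part of cell identity in the results was not tested, and the cells are called here by their labels. Replicate 1 of p53-null and of p53-WT stood apart from the other replicates of its group: its counts differed from theirs with a chi-square of 24.6 to 41.3 for each degree of freedom, where replicates 2 and 3 differed with 3.95 and 3.19. In such bulk libraries, fewer cells of a type and less RNA per cell cannot be told apart.

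Nucleotide excision repair removes bulky lesions such as those made by ultraviolet light. XPC senses the distorted helix, DDB2 and DDB1 form a complex that binds ultraviolet photoproducts, and ERCC5, the nuclease XPG, cuts the damaged strand on its 3′ side. Ribonucleotide reductase makes the deoxyribonucleotides that fill the gap: RRM1 is its large subunit, RRM2 the small subunit made mainly in S phase, and RRM2B (p53R2) a small subunit known as a p53 target that also serves resting cells. POLH and POLK are translesion polymerases that copy past lesions left in place, and MGMT removes alkyl groups from guanine by direct reversal. Wild-type p53 binds a response element built from a pair of similar decamers, each with a conserved core, and XPC, DDB2, RRM2B and POLH are textbook members of its transcriptional program.

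The 9 members listed in RefSeq's promoter table (XPC, DDB2, DDB1, ERCC5, RRM1, RRM2, POLH, POLK and MGMT; GRCh38.p14, 250 bases before to 50 after each start) were searched on both strands. The p53 response element decamer, allowing no mismatch, was found in 2 members, DDB2 and RRM1, and in 6.63% of all 35116 promoters. The E2F-type motif was searched as TTCCCGC, as the first variant of it, TTGGCGC, and as a further variant in which the middle letters differ, TTCGCGC. At least 1 of these was found in 5 members (XPC, DDB2, RRM1, RRM2 and MGMT) and in 11% of all promoters. The letters TTTGAA stood in 2 members, DDB2 and RRM1, and in 15.2% of all promoters, and CATG found again after 6 bases stood in 0 members and 0.373% of all promoters. A match is a description of letters and was not tested as a binding site.

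Stretches of DDB2, RRM1, RRM2 and XPC, chosen from the members with a match, are given 5′ to 3′ along the gene. Capitals mark the cores in DDB2, the decamer in RRM1 and the E2F-type letters in RRM2 and XPC.
DDB2: gaaCAAGccctgggCATGttt
RRM1: catttccgccGGGCATGTCCatatccaatg
RRM2: gggcccgcgcGCGCCAAggccgccgag
XPC: tctttcctgcTTCCCGCagttttttag
The DDB2 stretch (GRCh38, chr11:47214979-47214999, plus strand) lies in the 5′ untranslated part of exon 1 of its canonical transcript, from base 6 of that exon, and matches 20 of 20 letters of a full p53 element with 1 base between the decamers. Over a window from 2000 bases before to 3000 bases after the start, 0.157% of 27305 genes had as good a match. The best matches of the other 8 members in that window had 17 or 18 of 20 letters, as 88.1% and 23.5% of genes did at least. In the RRM1 stretch (chr11:4094633-4094662, plus strand) the decamer begins 42 bases before the start. In the RRM2 stretch (chr2:10122366-10122392, plus strand) the match, TTGGCGC on the other strand, begins 192 bases before the start, and the XPC stretch (chr3:14178725-14178751, minus strand) has its match begin 140 bases before the start.

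With p53-WT, every member passed the test against p53-null cells (edgeR, threshold of 0.05 on the adjusted p): 8 were higher and 2, RRM2 and POLK, were lower. For comparison, 66.5% of the 14275 genes tested were called, 33.5% as higher and 33% as lower. The 10 members had no overlap between p53-WT and p53-null libraries, as had 70.7% of all genes. By size, 5 members (DDB2, RRM2B, POLH, XPC and MGMT) were higher by more than 1 on the log2 scale and RRM2 was lower by more than 1, while 30.5% of all genes were called and passed that size in either direction, 17.9% as higher. The median size of change was 1.56 over the members and 0.61 over all genes. The plot of levels by library shows each value.

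**Figure D1:**
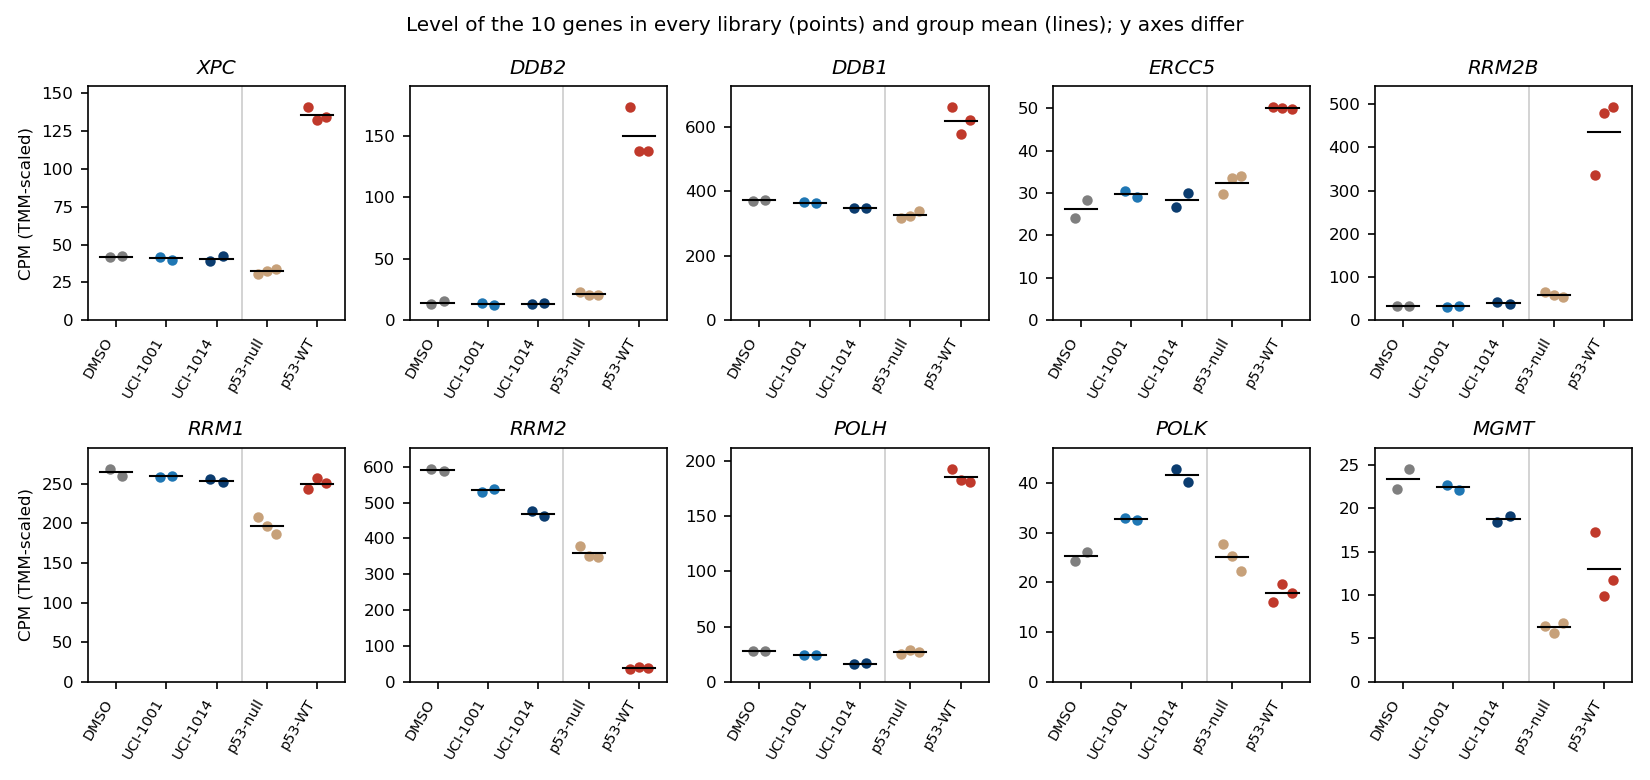
CPM, scaled with TMM factors, of the 10 genes in every library (points; y axes start at 0 and differ between genes), by group on the x axis, with the mean of each group as a line; the grey line separates TOV-112D from the libraries labelled Saos-2. DDB2, RRM2B, POLH and XPC stand far above every other group in p53-WT, RRM2 stands at its lowest there, and in TOV-112D POLK is highest and POLH lowest with UCI-1014.

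Among the damage sensors, DDB2 (ENSG00000134574, chromosome 11, from 47214465 to 47239217) was at 22.6, 20.6 and 20.3 CPM in the p53-null libraries and at 173, 137.7 and 137.2 CPM with p53-WT. The lowest p53-WT library was more than 6 times above the highest p53-null library. The log2 fold change was 2.82 (SE 0.13, adjusted p = 1.13e-08, edgeR). XPC (ENSG00000154767, chromosome 3, from 14145147 to 14178621, minus strand) was at 30.5, 32.8 and 33.6 CPM in p53-null and at 140.6, 132.1 and 134.4 CPM in p53-WT libraries (log2 fold change 2.07 ± 0.10, SE, adjusted p = 2.07e-08, edgeR). The 3 libraries of each line lay close together, far from those of the other line.

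DDB1 (ENSG00000167986, chromosome 11, from 61299451 to 61342596, minus strand), which also serves as the adaptor of CUL4 ubiquitin ligases, rose less than its partner DDB2, from 327 ± 11.6 to 620 ± 42.1 CPM (log2 fold change 0.92 ± 0.10, SE, adjusted p = 1.23e-05, edgeR). As TPM, which can be compared between genes, DDB2 stood at 15.9% to 24.1% of DDB1 in the p53-null libraries and at 67.6% to 75.9% in the p53-WT libraries. In TOV-112D the same share was between 11.9% and 13.8% in all 6 libraries. DDB2 was thus the less abundant transcript of the pair in all 12 libraries.

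ERCC5 (ENSG00000134899, chromosome 13, from 102845831 to 102875995) was at 29.7, 33.6 and 34.0 CPM in p53-null and at 49.8 to 50.2 CPM in p53-WT libraries (log2 fold change 0.62 ± 0.10, SE, adjusted p = 2.62e-04, edgeR). It shares sequence with the readthrough gene BIVM-ERCC5, which had 0 to 95 counts in a library, so its level is less certain than that of the other members. Up to 94.1% of its counts came from transcripts that the annotation used here does not list, and it is given no TPM.

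The small subunits of ribonucleotide reductase moved in opposite directions. RRM2B (ENSG00000048392, chromosome 8) was at 65.2, 59.6 and 54.2 CPM in p53-null and at 336.7, 479 and 493 CPM in p53-WT libraries. RRM2 (ENSG00000171848, chromosome 2, from 10120698 to 10211725) was at 379, 352 and 349 CPM in p53-null and at 34.8, 42.2 and 37.2 CPM in p53-WT libraries. Neither gene's groups overlapped, and p53-WT replicate 1 held the lowest level of both genes in its group. The log2 fold changes were 2.87 (SE 0.16, adjusted p = 4.35e-08, edgeR) for RRM2B and -3.24 (SE 0.12, adjusted p = 2.36e-09, edgeR) for RRM2. Without replicate 1 of both lines, a fit chosen after the libraries were seen, they were 3.10 and -3.14.

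On the TPM scale this turned the order of the pair. RRM2 was 12.5 ± 1.30 times as abundant as RRM2B in p53-null cells (SD, n = 3) and 0.230 ± 0.040 times as abundant with p53-WT. RRM2B thereby held 6.73% to 8.16% of the summed TPM of both subunits in p53-null libraries and 78.4% to 83.0% in p53-WT libraries. Of the RRM2 TPM, 36.3% in p53-null and 53.6% in p53-WT cells were assigned to transcripts annotated with a retained intron. With the canonical coding transcript of each gene alone, the ratio of RRM2 to RRM2B was 7.89 to 8.53 in p53-null and 0.098 to 0.130 in p53-WT libraries. The sum of both small subunits was 255 ± 21.5 TPM in p53-null and 158 ± 25.1 TPM in p53-WT cells.

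RRM1 (ENSG00000167325, chromosome 11, from 4094707 to 4138932), the large subunit, moved least of the 10 genes. It was at 207.8, 196.8 and 186.1 CPM in p53-null and at 243, 257 and 250.7 CPM in p53-WT libraries (log2 fold change 0.35 ± 0.097, SE, adjusted p = 0.00848, edgeR). On the TPM scale, tested with limma on log2(TPM + 0.5), the difference was 0.16 and was not called (adjusted p = 0.199). That scale set the median of all genes at -0.19 in place of -0.01, and it turned the share of called genes that were higher from 50.4% to 38.7%. The other 8 members with a TPM kept both their direction and their call.

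**Figure D2:**
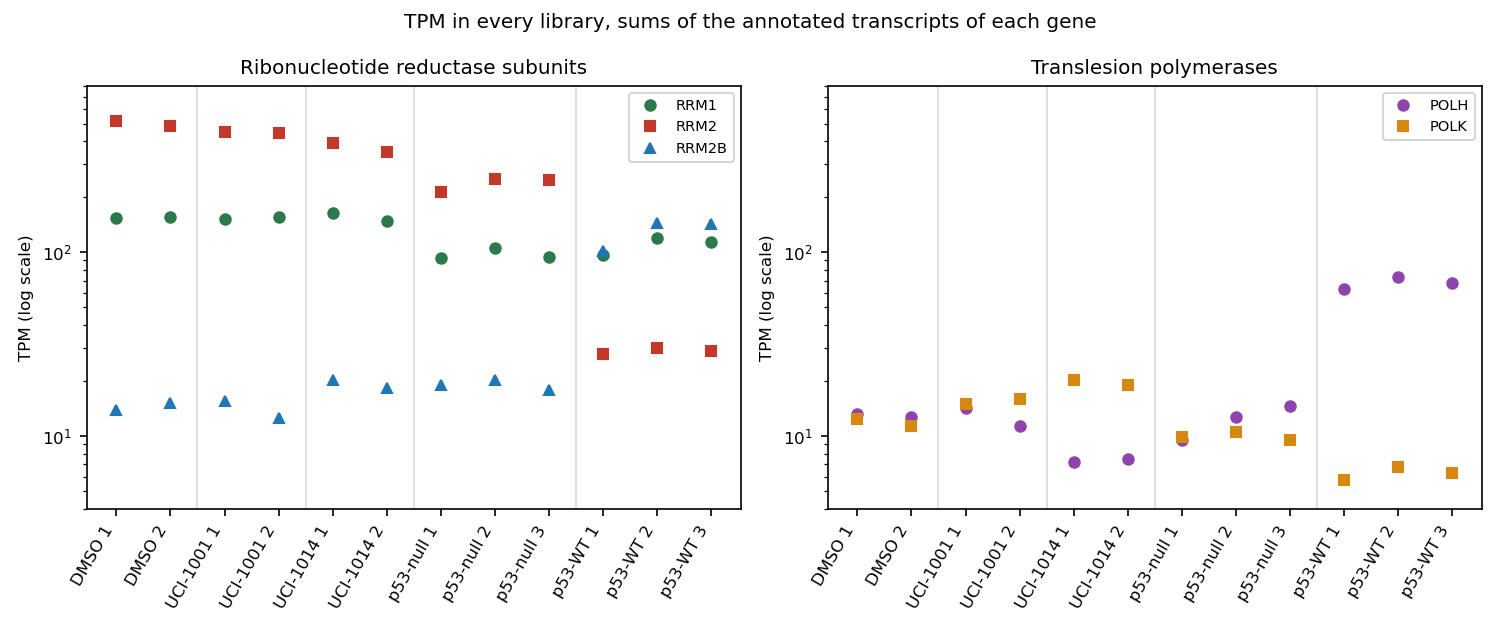
TPM on a log scale (y axis) in each of the 12 libraries (x axis), summed over the annotated transcripts of each gene; the left panel shows RRM1, RRM2 and RRM2B and the right panel POLH and POLK, and grey lines separate the groups. RRM2 lies above RRM1 and RRM2B in 9 libraries and below both in the 3 p53-WT libraries, and POLH lies above POLK by about 10.9 times in p53-WT and below it in both UCI-1001 and both UCI-1014 libraries and in p53-null replicate 1.

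The translesion polymerases also parted. POLH (ENSG00000170734, chromosome 6, from 43576185 to 43620523), the polymerase missing in the variant form of xeroderma pigmentosum, was at 25.4, 28.9 and 27.3 CPM in p53-null and at 192.8, 182.5 and 181.1 CPM in p53-WT libraries. The groups lay far apart (log2 fold change 2.77 ± 0.11, SE, adjusted p = 3.80e-09, edgeR). POLK (ENSG00000122008, chromosome 5, from 75511845 to 75609991) was at 27.7, 25.4 and 22.4 CPM in p53-null and at 16.0, 19.6 and 17.8 CPM in p53-WT libraries, and fell (log2 fold change -0.50 ± 0.13, SE, adjusted p = 0.00474, edgeR). The canonical coding transcript of POLK overlapped, at 1.78, 1.41 and 1.12 TPM in p53-null and at 0.664, 1.52 and 0.581 TPM in p53-WT libraries. Its protein-coding transcripts together also overlapped, at 2.045, 2.03 and 1.47 TPM in p53-null and at 2.22, 1.82 and 0.978 TPM with p53-WT. Over all transcripts, the ratio of POLH to POLK in TPM was 0.970 to 1.52 in p53-null and 10.8 to 10.9 in p53-WT libraries.

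MGMT (ENSG00000170430, chromosome 10, from 129467190 to 129770983) was the least abundant member in p53-null cells, at 6.45, 5.69 and 6.80 CPM, and was at 17.3, 9.91 and 11.7 CPM with p53-WT. The log2 fold change was 1.04 (SE 0.20, adjusted p = 7.82e-04, edgeR), with p53-WT replicate 1 well above the other replicates of its group. Without replicate 1 of both lines it was 0.80 (adjusted p = 2.42e-04, edgeR). In that fit the 8 members that were higher and the 2 that were lower kept their calls.

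The order of the 9 members with a TPM changed with p53-WT. In p53-null cells RRM2 led with 236 ± 21.2 TPM, followed by DDB1 (112 ± 13.8) and RRM1 (97.3 ± 6.76), whose libraries overlapped, and then by DDB2, RRM2B, XPC, POLH, POLK and MGMT, from 22.5 ± 2.51 down to 5.61 ± 0.494 TPM. With p53-WT, DDB1 led with 186 ± 11.8 TPM. DDB2 (131 ± 3.38), RRM2B (129 ± 24.1) and RRM1 (109 ± 11.7) came next, each overlapping its neighbor, while RRM2 fell to the seventh place with 29.0 ± 1.09 TPM. POLK was last with 6.24 ± 0.502 TPM.

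The other genes of the same pathways moved in both directions. Beside 33.5% of all genes called higher and 33% called lower with p53-WT, 5 of 28 other nucleotide excision repair genes rose and 14 fell, with a median log2 fold change of -0.28 against -0.01 over all genes. LIG1, a DNA ligase that seals the repaired strand, rose by 0.76 and CETN2, a partner of XPC, by 0.74, whereas RPA2, a subunit of the single-strand binding protein RPA, had -1.75. Of 14 other translesion and PCNA-linked genes, 2 rose (PCNA, the sliding clamp, by 0.69 and REV1 by 0.36) and 8 fell, among them USP1 (-2.68) and RAD18 (-2.26), the enzymes that remove and add ubiquitin on PCNA.

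Of 15 other genes of deoxyribonucleotide supply, 3 rose and 9 fell, with a median of -0.58. CMPK1, a kinase of pyrimidine monophosphates, rose by 1.36, and the salvage kinases DCK and TK1 had -1.82 and -1.63. Of 13 other genes of direct reversal and base excision repair, 2 rose (TDG by 1.39 and ALKBH3 by 0.71) and 8 fell, among them the uracil glycosylase UNG (-1.62) and MBD4 (-1.34). All 14 S phase genes of a fixed list fell, with a median of -2.72, from MCM5 (-1.10) to CCNE2, the S phase cyclin (-4.51). RRM2 moved together with these S phase genes, and the part of a shift in cell cycle phase in its fall was not tested.

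The genes whose pattern was most like that of a member were sought over all 12 libraries, with each cell line centered on its own mean, among 11789 genes. BUB1B (Pearson r = 0.9996), MCM4 (0.999) and EXO1 (0.999) were nearest to RRM2, PIDD1 (0.999) to DDB2, PLCD1 (0.999) to XPC and PPM1A (0.997) to RRM2B. These values are a description, since the difference between p53-WT and p53-null dominates the pattern of all of them. The log2 fold changes with p53-WT were -3.17 for BUB1B and -3.24 for RRM2.

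With UCI-1001, 2 of the 10 members were called against DMSO: POLK was higher and RRM2 lower. This stood beside 15.7% of the 14177 genes tested that were called, 9.39% as higher and 6.36% as lower. The other 8 members had adjusted p-values of 0.101 to 0.980 (edgeR) and log2 fold changes between -0.19 (POLH) and 0.18 (ERCC5). In the same libraries CDKN1A rose from 8.49 ± 1.01 to 26.6 ± 1.84 CPM (log2 fold change 1.65, adjusted p = 3.88e-08, edgeR). MDM2, another target of p53, had a log2 fold change of 0.00 (adjusted p = 0.968).

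POLK was at 24.3 and 26.2 CPM in the DMSO libraries and at 32.9 and 32.6 CPM with UCI-1001 (log2 fold change 0.38 ± 0.073, SE, adjusted p = 0.00283, edgeR). RRM2 was at 594 and 587 CPM with DMSO and at 531 and 538 CPM with UCI-1001 (log2 fold change -0.15 ± 0.034, SE, adjusted p = 0.00981, edgeR). Both UCI-1001 libraries lay beyond both DMSO libraries for each gene. Neither call held with every choice of libraries. Without DMSO replicate 1, POLK had an adjusted p of 0.0614 and RRM2 of 0.130, and RRM2 was not called either without DMSO replicate 2 (0.0867) or without UCI-1001 replicate 1 (0.0522). On the TPM scale with limma the adjusted p was 0.133 for POLK and 0.279 for RRM2.

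RRM2B, DDB2, POLH and XPC, the members that p53-WT raised most, were not called with UCI-1001. POLH was at 28.1 and 27.9 CPM with DMSO and at 24.6 and 24.5 CPM with UCI-1001, without overlap, and the 95% interval of its log2 fold change ran from -0.35 to -0.03 (adjusted p = 0.101, edgeR). In CPM the libraries of the other 3 genes overlapped. XPC was at 41.6 and 42.3 CPM with DMSO and at 41.8 and 40.0 CPM with UCI-1001, with an interval from -0.18 to 0.11. DDB2 was at 13.5 and 15.3 CPM with DMSO and at 13.9 and 12.4 CPM with UCI-1001, with an interval from -0.35 to 0.10. RRM2B was at 32.9 and 32.1 CPM with DMSO and at 31.0 and 33.9 CPM with UCI-1001, with an interval from -0.17 to 0.16. In TPM the libraries of RRM2B overlapped, but XPC and DDB2 lay below DMSO without overlap. XPC was at 24.3 and 22.6 TPM with DMSO and at 19.9 and 18.4 TPM with UCI-1001. DDB2 was at 19.3 TPM in both DMSO libraries and at 18.8 and 16.0 TPM with UCI-1001. The canonical transcript of DDB2 was also lower, at 8.64 and 8.39 TPM with DMSO and at 7.88 and 6.90 TPM with UCI-1001. The intervals of all 4 genes lay below the log2 fold changes of 2.07 to 2.87 that the same genes had with p53-WT. The cells, the times and the way p53 was altered differ between those comparisons and cannot be told apart.

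**Figure D3:**
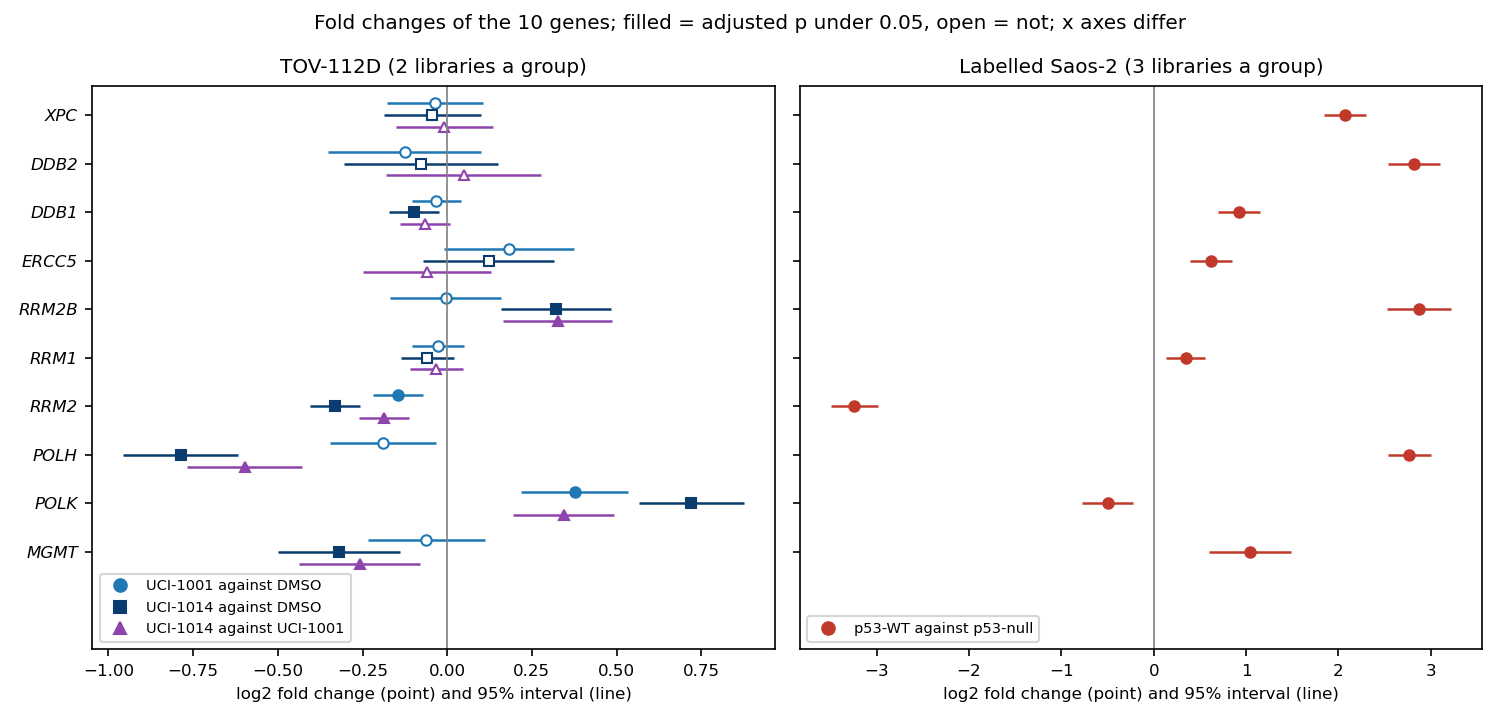
Log2 fold changes (x axis; points, with 95% intervals from the edgeR fit as lines) of the 10 genes (y axis) for the comparisons in TOV-112D on the left and for p53-WT against p53-null on the right, where the x axis is wider; filled points have an adjusted p-value under 0.05 and open points do not. All 10 points are filled on the right, and on the left UCI-1014 has 6 filled points and UCI-1001 has 2, with POLH and POLK farthest from 0.

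UCI-1014, compared with the same 2 DMSO libraries, had 6 members called: POLK and RRM2B were higher, and POLH, RRM2, MGMT and DDB1 were lower. The background was 47.1% of genes called, 23.7% as higher and 23.4% as lower, so that a count of 6 in 10 does not set the members far apart. The median size of change was 0.22 over the members and 0.24 over all genes. CDKN1A rose to 98.6 ± 1.31 CPM (log2 fold change 3.54, adjusted p = 2.53e-13, edgeR), whereas MDM2 had a log2 fold change of 0.05 (adjusted p = 0.350, edgeR).

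POLH was at 28.1 and 27.9 CPM with DMSO, at 24.6 and 24.5 CPM with UCI-1001 and at 15.8 and 16.6 CPM with UCI-1014. The UCI-1014 libraries lay apart from all others, and the gene fell by 42.0% against DMSO (log2 fold change -0.79 ± 0.079, SE, adjusted p = 1.36e-06, edgeR). POLK was at 42.9 and 40.3 CPM with UCI-1014, above all other TOV-112D libraries, and rose by 64.7% (log2 fold change 0.72 ± 0.072, SE, adjusted p = 1.39e-06, edgeR). The ratio of POLH to POLK in TPM over all transcripts was 1.07 and 1.12 in the DMSO libraries. It was 0.956 and 0.718 with UCI-1001 and 0.355 and 0.393 with UCI-1014, with POLK above POLH in all 4 treated libraries. Coding transcripts alone did not show that order. Those of POLH summed to 14.25 and 11.3 TPM with UCI-1001 and to 7.17 and 7.48 TPM with UCI-1014. Those of POLK summed to 5.86 and 4.23 TPM with UCI-1001 and to 4.12 and 4.78 TPM with UCI-1014.

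With UCI-1014 the level of the canonical coding transcript of POLK overlapped that with DMSO. This gene has 17 transcripts in the files, and kallisto assigned 15.9% and 17.7% of its TPM to the canonical one with DMSO. That transcript was at 2.18 and 1.81 TPM with DMSO, at 2.82 and 2.25 TPM with UCI-1001 and at 2.09 and 1.83 TPM with UCI-1014, so that only the UCI-1001 libraries lay above both DMSO libraries. The 7 transcripts annotated as targets of nonsense-mediated decay, a pathway that degrades messages with an early stop codon, summed to 5.56 and 6.80 TPM with DMSO, to 7.35 and 9.83 TPM with UCI-1001 and to 15.4 and 12.4 TPM with UCI-1014. The 5 protein-coding transcripts together were at 5.84 and 2.81 TPM with DMSO, at 5.86 and 4.23 TPM with UCI-1001 and at 4.12 and 4.78 TPM with UCI-1014, so the DMSO libraries spanned nearly all of that range. No error of these estimates was read from the files and no test was run on them. POLK overlaps CERT1 on the other strand, as POLH does GTPBP2, DDB1 does TKFC and XPC does the gene ENSG00000268279. Whether the counting used strand is not given in the sources used here.

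Of POLH, all TPM was assigned to coding transcripts. Its canonical transcript was at 12.6 and 12.7 TPM with DMSO, at 10.9 and 11.02 TPM with UCI-1001 and at 7.17 and 6.98 TPM with UCI-1014, and at 57.0 to 67.6 TPM with p53-WT. The order of the treatments was the same as in the counts of the whole gene. UCI-1014 was the lowest of the 5 groups for POLH, and p53-WT the highest.

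RRM2 was at 476 and 463 CPM with UCI-1014, below both UCI-1001 libraries (531 and 538 CPM), and fell by 20.5% against DMSO (log2 fold change -0.33 ± 0.034, SE, adjusted p = 1.90e-06, edgeR). RRM2B was at 42.8 and 38.6 CPM with UCI-1014, above the 4 other libraries of the line, and rose (log2 fold change 0.32 ± 0.076, SE, adjusted p = 0.00276, edgeR). The call of RRM2B was lost on the TPM scale (limma, adjusted p = 0.0851) and with DESeq2 on all 12 libraries (0.289), while RRM2 kept its call in both. RRM2 remained by far the more abundant small subunit. It was 31.9 and 37.4 times as abundant as RRM2B in TPM with DMSO and 19.3 and 19.6 times with UCI-1014, and the ratio of the canonical transcripts went from 22.1 ± 1.51 to 14.8 ± 0.258 (mean ± SD, n = 2 and 2). RRM1, at 256.2 and 251.9 CPM, had a log2 fold change of -0.06 that was not called (adjusted p = 0.209, edgeR).

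MGMT was at 22.3 and 24.6 CPM with DMSO and at 18.4 and 19.1 CPM with UCI-1014, and fell by 19.9% (log2 fold change -0.32 ± 0.084, SE, adjusted p = 0.00574, edgeR). The groups did not overlap, but the call was lost without DMSO replicate 2 (adjusted p = 0.0713) and with DESeq2 (0.0752). DDB1 was at 372 and 373 CPM with DMSO and at 348 and 349 CPM with UCI-1014, and fell slightly (log2 fold change -0.10 ± 0.034, SE, adjusted p = 0.0300, edgeR). Its call was lost in a fit with the replicate number as a block (adjusted p = 0.0509) and when any 1 of the 6 libraries was left out (0.0601 to 0.181).

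XPC, DDB2, ERCC5 and RRM1 were not called with UCI-1014. XPC was at 38.9 and 42.4 CPM and DDB2 at 13.02 and 14.1 CPM, and in CPM the libraries of both overlapped those of DMSO. In TPM both genes lay below DMSO without overlap. XPC was at 24.3 and 22.6 TPM with DMSO and at 20.3 and 20.4 TPM with UCI-1014. DDB2 was at 19.3 TPM in both DMSO libraries and at 16.8 and 17.1 TPM with UCI-1014. The canonical coding transcripts of both genes, however, overlapped those with DMSO. That of XPC was at 16.0 and 14.7 TPM with DMSO and at 14.6 and 14.9 TPM with UCI-1014. For DDB2 it was at 8.64 and 8.39 TPM with DMSO and at 7.81 and 8.46 TPM with UCI-1014. The 95% intervals of the log2 fold changes were -0.19 to 0.10 for XPC and -0.31 to 0.15 for DDB2. Of the XPC TPM, 65.0% and 66.0% was assigned to its canonical transcript with DMSO, 85.7% and 90.4% with UCI-1001 and 71.7% and 72.7% with UCI-1014, while transcripts annotated with a retained intron held 20.5% to 27.9%, 9.02% to 9.58% and 7.69% to 19.9% of it.

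UCI-1014 was then set against UCI-1001, the only pair of compounds in these libraries, at the same 3 h. Since the amount of UCI-1014 is not given, a difference between the compounds and a difference in dose cannot be told apart. Of the 10 members 5 differed, beside 31.1% of all genes, 17.1% as higher and 13.9% as lower with UCI-1014. POLK (log2 fold change 0.34, adjusted p = 0.00173) and RRM2B (0.33, 0.00425) were higher, and POLH (-0.60, 5.39e-05), RRM2 (-0.19, 8.47e-04) and MGMT (-0.26, 0.0301) were lower with the methoxy analog (edgeR, adjusted over all genes tested). The call of MGMT was lost without any 1 of the UCI-1001 or UCI-1014 libraries (0.0728 to 0.152). POLH was the 1 member that was also called on the TPM scale (limma, adjusted p = 0.0314) and with DESeq2 on all 12 libraries (4.62e-06), where RRM2 (0.0592 and 0.0713), POLK (0.0680 and 0.141), RRM2B (0.0938 and 0.313) and MGMT (0.0701 and 0.540) were not.

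The other 5 members did not pass the test between the compounds, and the interval of each difference bounds what these libraries can show. It ran from -0.15 to 0.13 for XPC, from -0.18 to 0.28 for DDB2, from -0.14 to 0.01 for DDB1, from -0.25 to 0.13 for ERCC5 and from -0.11 to 0.05 for RRM1, on the log2 scale. For POLH the interval was -0.77 to -0.43, for POLK 0.20 to 0.49 and for RRM2B 0.17 to 0.49. POLH had the widest difference between the compounds among the members, and the sizes of POLK and RRM2B lay within each other's intervals.

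Side by side, the called directions in TOV-112D and in the libraries labelled Saos-2 were the same for RRM2, lower in each, and for RRM2B, higher with UCI-1014 and with p53-WT. They were opposite for POLH (-0.79 with UCI-1014 and 2.77 with p53-WT), POLK (0.72 and -0.50), MGMT (-0.32 and 1.04) and DDB1 (-0.10 and 0.92). As given above, the UCI-1014 calls of RRM2B, MGMT and DDB1 and the UCI-1001 call of RRM2 did not hold in every alternative. The canonical transcript of POLK with UCI-1014 overlapped that with DMSO, and with p53-WT it overlapped that in p53-null cells. These comparisons share no libraries, and the difference between them was not tested.

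**Figure D4:**
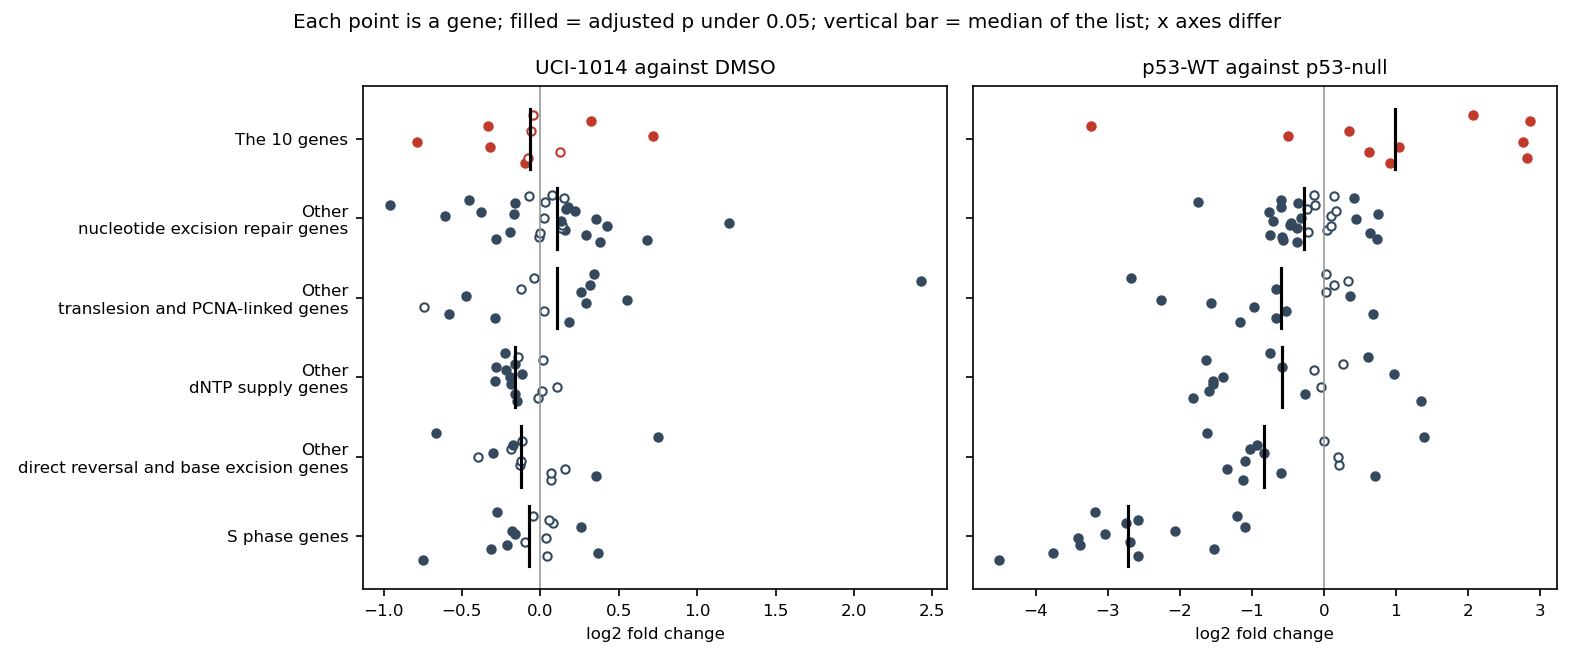
Log2 fold change (x axis, ranges differ) of each gene (points, spread in height by name only) of the 10 members and of 5 lists of other genes (y axis), with UCI-1014 against DMSO on the left and p53-WT against p53-null on the right; filled points have an adjusted p-value under 0.05 and bars mark the median of a list. All 14 S phase genes lie below 0 on the right, and 10 of 15 deoxyribonucleotide supply genes are filled and below 0 on the left.

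The lists of other genes are read against the 15.7% of all genes called with UCI-1001, 9.39% as higher and 6.36% as lower. Of 28 other nucleotide excision repair genes 3 rose and 1 fell, led by GTF2H1, a subunit of the helicase complex TFIIH, at 0.59 (adjusted p = 7.13e-06, edgeR), and RBX1, the ring subunit of cullin ligases, had -0.21 (0.0284). DESeq2 called 1 of them higher and 0 lower. Of 14 translesion and PCNA-linked genes 1 rose and 2 fell. The one that rose was UBE2B, an enzyme that works with RAD18 to ubiquitinate PCNA, at 1.27 (adjusted p = 5.82e-08, edgeR). Of 15 deoxyribonucleotide supply genes 0 were called by edgeR, 0 by DESeq2 and 0 at an unadjusted p under 0.05. Of 13 direct reversal and base excision genes 1 rose and 1 fell, and of 14 S phase genes 2 fell and 0 rose (0 at an unadjusted p under 0.05 and 0 by DESeq2). At an unadjusted p under 0.05 (edgeR), 6 S phase genes were lower, and DESeq2 called 1 lower.

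With UCI-1014, where 23.7% of all genes were called higher and 23.4% lower, 11 of the 28 other excision repair genes rose and 8 fell. DESeq2 called 7 of them higher and 5 lower. GTF2H1 went from 39.4 to 90.6 CPM (95% interval of the log2 fold change 1.08 to 1.32, adjusted p = 3.97e-10, edgeR), and RBX1 from 54.9 to 28.2 CPM (-0.96, SE 0.064, adjusted p = 1.68e-08). Of 14 translesion and PCNA-linked genes 7 rose and 3 fell. UBE2B went from 27.7 to 149 CPM (2.43, SE 0.073, adjusted p = 3.16e-12, edgeR), RAD18 had 0.55 and PCNA -0.58. UBE2B thus moved further than any of the 10 members did in TOV-112D.

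Of the 15 deoxyribonucleotide supply genes, 10 fell with UCI-1014 and 0 rose (edgeR, 0 also at an unadjusted p under 0.05), with a median of -0.16 against -0.02 over all genes. DESeq2 called 6 of them lower and 0 higher. The changes were small, with DTYMK, the thymidylate kinase, at -0.29 (adjusted p = 8.30e-04, edgeR) and NUDT1, which clears oxidized nucleotides, at -0.28 (0.00826) as the lowest. Of 13 direct reversal and base excision genes 2 rose, led by TDG at 0.75, and 3 fell, led by UNG at -0.66. Of 14 S phase genes 2 rose (CDC6 at 0.37 and MCM5 at 0.26) and 6 fell, among them CCNE2 (-0.75) and CDT1 (-0.31), with a median of -0.07. Against UCI-1001, where 17.1% of all genes were higher and 13.9% lower, UCI-1014 had 4 excision repair genes higher and 6 lower, 5 and 2 of the translesion list, 0 and 8 of the nucleotide supply list, 2 and 2 of the base excision list and 2 and 2 of the S phase list.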

How the data were processed

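RNA-seq was analysed in all 12 libraries. The authors quantified reads with kallisto 0.48.0 against GRCh38, summed the estimated transcript counts for each Ensembl gene, rounded them to whole numbers and tested those with DESeq2 1.38.3. The deposited gene table holds these counts, not normalized. A kallisto file of each library, also deposited, gives estimated counts and TPM of 187626 transcripts, of which 165858 were found in GENCODE release 44. The estimated counts served to check that each column belonged to its library. They also served to check that the listed transcripts of a member added up to its deposited count within 5%, which failed for ERCC5. Within a tolerance of 1 count, a column matched its own file in at least 95.5% of genes and any other file in at most 54.3%. Because kallisto shares reads between transcripts by estimation, the values of single transcripts are less certain than those of genes.

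Rows of the same symbol were summed (36486 rows) and tested with edgeR 4.0.16 in R 4.3.3 (TMM, filterByExpr, glmQLFit, glmQLFTest, Benjamini-Hochberg adjustment over all genes tested), with one fit per cell line and no covariate. Genes were called at an adjusted p-value under 0.05. The fits covered 14177 genes in TOV-112D (biological coefficient of variation 3.59%) and 14275 in the libraries labelled Saos-2 (12.3%). Library totals were 17762027 to 24629558 counts. The test was tried on simulated data. TPM was used per gene for levels and, as log2(TPM + 0.5) in limma 3.58.1, as an alternative. DESeq2 1.42.0 was another alternative. Promoters came from RefSeq and longer windows from the GRCh38 sequence.

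Same-numbered replicates were not fitted as pairs. The correlation of their deviations from the group means was 0.075 to 0.139 in the libraries labelled Saos-2 and -0.164 to 0.063 in TOV-112D. Between replicates of unlike number it was -0.184 to 0.132 and -0.063 to 0.164. In TOV-112D, with 2 libraries in a group, the values for unlike numbers are those for like numbers with the sign turned. They add no information there. All 10 members, the genes checking the labels, and up to 4 examples per list (the widest changes in each direction among called genes averaging 1 CPM or more) were named. The members and lists were chosen with earlier results of these data known. MCM5 among p53-WT results, BUB1B and the other genes nearest to a member, and the transcripts described were named after their values were seen. A further check of the labels is not reported here.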

Additional observations from a re-analysis of the deposited data

How the results depend on the processing

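With p53-WT, 8 members were called higher and 2 lower in every alternative but the TPM scale, which left 6 of 9 higher and 2 lower, and a threshold of 0.001 on the adjusted p, which left 7 higher and 1 lower. Genes called there numbered 9489, 5735 at 0.001, and 8599 to 9769 with 1 library left out. Without replicate 1 of both lines, added after seeing the data, they numbered 10681. With UCI-1001, the 2232 genes called became 550 at 0.001, 1149 with DESeq2, 224 on the TPM scale (87.9% of them higher, in place of 59.6%), 435 with DESeq2 on all 12 libraries, and 952 to 2538 with 1 library left out. Members called higher and lower there were 0 and 0 at 0.001, on the TPM scale and with DESeq2 on all 12 libraries, and each 0 to 1 with 1 library left out. With UCI-1014, 6677 genes became 3374, 4075 (TPM), 3443 (DESeq2, all 12 libraries) and 5060 to 6635 (1 library left out). The members higher and lower were 1 and 2 at 0.001 and with DESeq2 on all 12 libraries, 2 lower with DESeq2, 1 higher on the TPM scale, and 2 to 3 lower with 1 library left out. Between the compounds, 4406 genes became 1518, 2636 (DESeq2), 1722 (TPM), 1249 (DESeq2, all 12 libraries) and 3011 to 3804. The members higher were 0 at 0.001, and 0 were higher and 1 lower on the TPM scale and with DESeq2 on all 12 libraries. The causes were not tested.

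Members near 0 that were not called changed sign. Between the compounds these were XPC with RLE factors (0.0003013) and TPM (0.0906), DDB2 with TPM (-0.0325) and RRM1 with TPM (0.0149), and RRM1 had 0.001275 with UCI-1014 on the TPM scale. With 1 library left out, RRM2B ran from -0.0757 to 0.0601 and MGMT from -0.135 to 0.0108 with UCI-1001, XPC from -0.101 to 0.0257 and DDB2 from -0.159 to 0.0137 with UCI-1014, and XPC from -0.0626 to 0.0634, DDB2 from -0.0134 to 0.141 and ERCC5 from -0.139 to 0.0324 between the compounds. The replicate number as a block gave 1774, 6307, 3882 and 9814 genes called (UCI-1001, UCI-1014, between the compounds, p53-WT) and changed no call of a member but that of DDB1 with UCI-1014. A crossed pairing of the compounds' libraries, added after seeing the data, gave 4979 genes called. Where leaving out a library left a group with 1, the lone library was assumed to vary like the others. The members with the lowest levels, MGMT in p53-null cells (6.31 CPM) and DDB2 in TOV-112D (13.1 to 14.4 CPM), have the least precise values.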
